A study of Mus musculus with 4 samples.

Results

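The genes described here encode 6 proteins that bind N6-methyladenosine (m6A) in RNA: Ythdf1, Ythdf2, Ythdf3, Ythdc1, Ythdc2 and Igf2bp2. They were chosen by name under a rule that uses no measured value, though with earlier results of these data known. They are 6 of the 37315 Ensembl gene identifiers in each input count table. Their gene spans held 22 of the 22860 m6A peaks of the vehicle list and 24 of the 31856 peaks of the entacapone list, where a peak belongs to the gene whose span holds its midpoint. The identifiers were paired with these symbols by the definition of the group, since the count tables give no symbols.

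The study gave entacapone or vehicle to male C57BL/6 mice with obesity induced by a high-fat diet, and took white fat from them at 23 weeks of age. Entacapone is an inhibitor of catechol-O-methyltransferase that has also been reported to inhibit FTO, an enzyme that removes m6A. Per the series title the fat was inguinal. There were 4 libraries with 1 in each group: vehicle input, vehicle m6A immunoprecipitate, entacapone input and entacapone m6A immunoprecipitate. Vehicle and entacapone mice shared strain, sex, age and the diet-induced obesity. Whether a library came from 1 mouse or a pool is not given in the sources used here, and neither are the dose and duration of treatment.

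No group had a replicate, so no test across samples was possible, and each difference below lies between libraries rather than between treatments. Intervals are 95% and cover counting error only. The vehicle input held 24548212 counts and the entacapone input 33164576, or 1.35 times as many, and the entacapone peak list was 1.39 times as long as the vehicle list. The read depth of the immunoprecipitate libraries is unknown here. Levels are given as CPM (read counts scaled to the library total), which puts the median of the 13820 identifiers with at least 1 CPM on average at a log2 ratio of 0.08 and not at 0. In the peak lists, 4 and 5 of 8 adipocyte markers carried a vehicle and an entacapone peak, and Adipoq, Fabp4 and Cfd carried none. Marker levels in the inputs were not read, because no table used here pairs those identifiers with symbols. Endothelial markers (Pecam1, Cdh5 and Tek) went from 0 to 12 peaks and lymphocyte markers from 6 to 13, macrophage markers had 4 and 3, epithelium markers 4 and 4, and adipocyte markers 9 and 16. Skeletal muscle markers had 4 and 4, with Myh4 at 3 and 0 and Neb at 1 and 4. The part of these markers in the values of the readers was not tested, and in whole tissue fewer cells of a type cannot be told apart from less RNA per cell.

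m6A is written into messenger RNA by a nuclear complex built on METTL3 and METTL14, is removed by FTO and ALKBH5, and acts through proteins that recognise it. The YTH domain holds the methylated adenosine in an aromatic pocket. The cytoplasmic YTHDF proteins, above all YTHDF2, are known for bringing marked transcripts to the decay machinery, and nuclear YTHDC1 for acting on their splicing and export. IGF2BP2 has KH domains instead, is described as stabilising marked transcripts, and in brown fat is known to hold back translation of Ucp1.

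The gene spans of these readers held m6A peaks themselves, though whether each peak lies in the reader's own transcript was not determined. In Ythdc1 a peak of each list began just after the annotated start. The stretch is shown because it is the only reader start window in the RefSeq table (build GRCm38.p6, the assembly called mm10) that a peak entered. It covers chr5:86804016-86804295 on the plus strand, from 250 bases before the start to 30 bases after it, and capitals mark the 15 bases under the entacapone peak.
Ythdc1: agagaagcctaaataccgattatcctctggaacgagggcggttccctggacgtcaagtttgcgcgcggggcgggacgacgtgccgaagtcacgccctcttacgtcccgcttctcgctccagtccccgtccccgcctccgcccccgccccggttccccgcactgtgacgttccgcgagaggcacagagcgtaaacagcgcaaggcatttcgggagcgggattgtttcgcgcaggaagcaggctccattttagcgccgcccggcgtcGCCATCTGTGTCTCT
The entacapone peak began 15 bases after the start and the vehicle peak 27 bases after it, and they ended 260 and 259 bases after it. The start is that of the promoter table, and the annotated gene span begins further upstream. These positions take the deposited starts as counted from 1, which the files do not state. Over the table's window of 250 bases before to 50 after the start, the letters GGAC, a core of the m6A consensus, occurred 2 times as transcribed and 3 times on the opposite strand in Ythdc1. GGAC on either strand occurred in 87.7% of the 32851 windows of the table. None of the Ythdc1 matches lay in the 50 bases after the start, where 33.3% of windows held one. The window held only 35 bases of the entacapone peak and 23 of the vehicle peak. The rest of each peak was not searched, so whether the peaks hold the letters is not known. The longer GGACT, which contains GGAC, occurred 1 time, on the opposite strand, against 45.5% of windows with a match. Ythdf1, Ythdf2 and Igf2bp2 had windows without a peak, and Ythdf3 and Ythdc2 were not matched in that table.

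In the inputs, none of the 6 readers differed between the libraries by an interval wholly beyond 1.5-fold in either direction. Across all tested identifiers 5.6% were higher and 2.52% lower in the entacapone input by that rule. All 6 intervals lay wholly within 1.5-fold, as did those of 68.8% of tested identifiers. Smaller differences exceeded the 95% counting error for 3 readers: Ythdc1 and Ythdf3 were higher and Ythdf1 was lower in the entacapone input. Among all tested identifiers, 37.3% had an interval wholly above 1 and 20.0% one wholly below 1, so such differences were common. The median log2 ratio of the readers was 0.05, beside 0.08 over all tested identifiers. Levels of different readers are not ranked, because transcript lengths are not in the tables used here.

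Among the cytoplasmic YTHDF genes, Ythdf1 (ENSMUSG00000038848), which is described as promoting translation of marked transcripts, had 1321 vehicle and 1621 entacapone counts. These are 53.8 CPM (50.9 to 56.8) and 48.9 CPM (46.5 to 51.3), a ratio of 0.908 (0.844 to 0.977). Ythdf1 was thus lower in the entacapone library, at percentile 21.7 of all tested log2 ratios, but the difference was at the edge of counting error, since a 99% interval (0.825 to 1.0001) reached 1. Ythdf2 (ENSMUSG00000040025), which recruits the CCR4-NOT deadenylase, had 909 and 1232 counts, or 37.0 CPM (34.7 to 39.5) and 37.1 CPM (35.1 to 39.3). Its ratio of 1.003 (0.920 to 1.09) left no difference detectable at this depth. Ythdf3 (ENSMUSG00000047213), described as working with the other YTHDF proteins, had 1447 and 2200 counts. It stood at 58.9 CPM (55.9 to 62.1) in vehicle and 66.3 CPM (63.6 to 69.2) in entacapone, a ratio of 1.13 (1.05 to 1.203). The Ythdf3 interval held 1 with TMM factors, which trim extreme genes before scaling: the ratio was then 1.06 (0.996 to 1.14). By that scaling only Ythdc1 lay wholly above 1 and only Ythdf1 wholly below it, at 0.859 (0.798 to 0.925), where 27.3% and 28.4% of all tested identifiers did.

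The summed level of the YTHDF genes was nearly level between the libraries, at 149.8 CPM in vehicle and 152.4 CPM in entacapone, a ratio of 1.02 (0.975 to 1.06). Within that sum the shares differed between the libraries, and how common such shifts are among other genes was not computed. Ythdf1 made up 35.9% of the YTHDF counts in vehicle and 32.1% in entacapone, and Ythdf3 made up 39.4% and 43.5%. Ythdf2 had a similar share, at 24.7% and 24.4%.

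Nuclear and helicase readers were Ythdc1 and Ythdc2. Ythdc1 (ENSMUSG00000035851) had 1606 vehicle and 2649 entacapone counts, or 65.4 CPM (62.3 to 68.7) and 79.9 CPM (76.9 to 83.0). Its ratio of 1.22 (1.15 to 1.30) was the largest among the readers and lay at percentile 74.6 of all tested identifiers, so larger ratios were common. With TMM factors it was 1.15 (1.08 to 1.23). Ythdc2 (ENSMUSG00000034653), an RNA helicase known for its role in meiosis, had 212 and 307 counts, 8.64 CPM (7.51 to 9.88) and 9.26 CPM (8.25 to 10.4). The ratio of 1.07 (0.897 to 1.28) is not resolved from 1 at these counts. Igf2bp2 (ENSMUSG00000033581), the KH domain reader, had 170 and 217 counts, 6.93 CPM (5.92 to 8.05) and 6.54 CPM (5.701 to 7.47). With a ratio of 0.945 (0.769 to 1.16), Igf2bp2 had the widest interval of the 6 and no resolved difference.

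Ratios of different readers can be set against each other without any scaling, since a library's total cancels. Of the 15 pairs, 5 had a ratio of ratios with an interval wholly above 1, and 3 kept it after the interval was widened for 15 comparisons. The share over pairs of other genes was not computed, so these counts are not read as particular to readers. Intervals of single identifiers often excluded 1, with 37.3% of all tested wholly above it and 20.0% wholly below it. Ythdc1 against Ythdf1 gave 1.34 (1.16 to 1.55 when widened), Ythdf3 against Ythdf1 gave 1.24 (1.07 to 1.44) and Ythdc1 against Ythdf2 gave 1.22 (1.04 to 1.43). Beyond counting error alone, Ythdf1 therefore stood lower relative to Ythdc1 and Ythdf3 in the entacapone library, whichever scaling is used. Ythdf1 and Ythdf2 were not told apart, with Ythdf2 over Ythdf1 at 1.104 (0.932 to 1.31 when widened). For Ythdc1 over Ythdf3 the value was 1.08 (0.946 to 1.24).

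**Figure D1:**
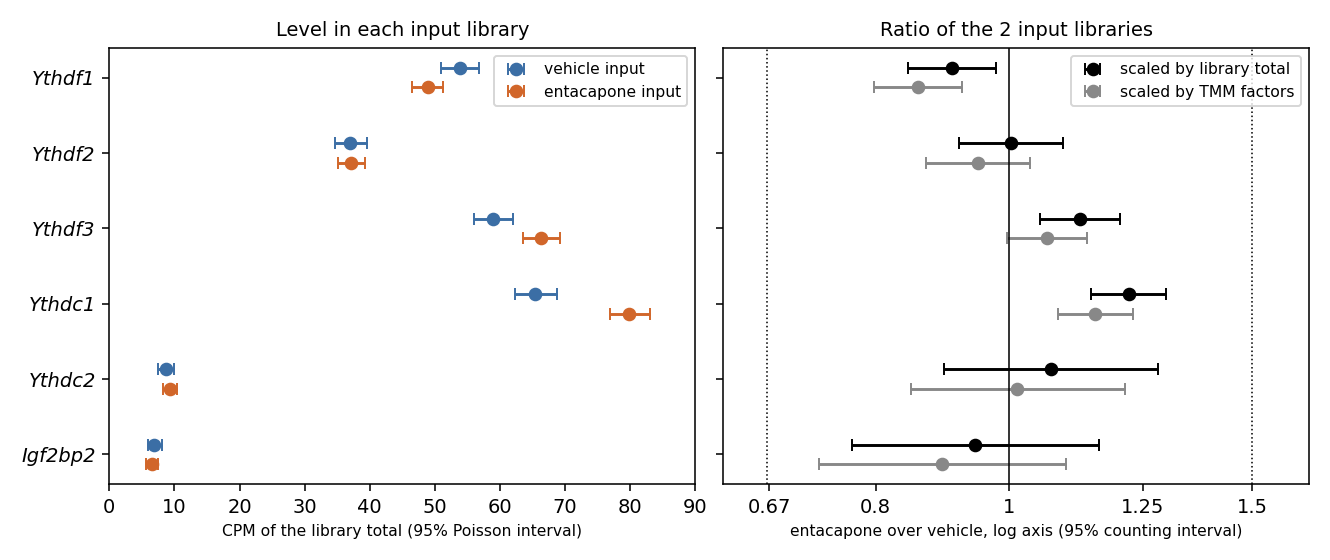
Left, level of each reader in the vehicle and entacapone input in CPM with 95% Poisson intervals; right, ratio of entacapone over vehicle on a log axis with 95% counting intervals, scaled by library total or TMM factors, with dotted lines at 1.5-fold. All intervals lie inside the dotted lines, Ythdc1 is highest at 1.22 and Ythdf1 lowest at 0.908.

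All 6 readers carried a peak in each list, where 40.2% of 21887 protein-coding genes carried a vehicle peak and 49.1% an entacapone peak. Those shares count genes whatever their input level, whereas all 6 readers reached 1 CPM on average. They are therefore not a background matched for expression, and the readers are not read as unusually marked. The number of peaks per reader had a median of 3 in the vehicle list and 3.5 in the entacapone list, beside 1 and 2 over the 11272 protein-coding genes with a peak in either list. Ythdf2, Ythdf3 and Ythdc1 had more peaks in the entacapone list, Ythdf1 had equal numbers, and Ythdc2 and Igf2bp2 had fewer. Among genes with a peak in either list, 55.3% had more, 29.3% equal numbers and 15.3% fewer in entacapone. Among genes with 2 to 6 vehicle peaks, the range of the readers, 42.4% had more and 23.8% fewer. With 6 genes, 3 with more and 2 with fewer peaks cannot be read as differing from those shares. The counts depended on the fold threshold, where fold is the unlabelled number deposited with each peak, read here as fold enrichment. Since folds are not compared between lists, that dependence is not read as a change of direction. At a fold of at least 4, 0 readers had more and 2 had fewer, beside 43.6% and 33.9% of genes with such a peak. Only Ythdf3, Ythdc2 and Igf2bp2 had such a peak, with 1 and 1, 2 and 0, and 2 and 1 in vehicle and entacapone. With lists cut to equal length by fold, 0 had more and 5 fewer, beside 34.3% and 38.8%; that cut removes entacapone peaks alone.

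A vehicle peak of a reader had an entacapone partner, overlapping by at least 1 bp, in 20 of 22 cases and none in 2, where 21.3% of all vehicle peaks had none. An entacapone peak had a vehicle partner in 18 of 24 cases and none in 6, where 44.1% of all entacapone peaks had none. When partners had to share 50% of both peaks, 11 of the 22 and 11 of the 24 had one, so many partners differed in extent. Entacapone-only peaks lay in 4 readers (65.5% of genes with a peak in either list had such a peak) and vehicle-only peaks in 2 (28.8%). Covered length was 3521 bp in vehicle and 4205 bp in entacapone, a ratio of 1.19, against 1.38 for the whole lists. The bases in common made up 77.0% of the vehicle and 64.5% of the entacapone length of the readers, beside 74.4% and 53.9% for all peaks.

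**Figure D2:**
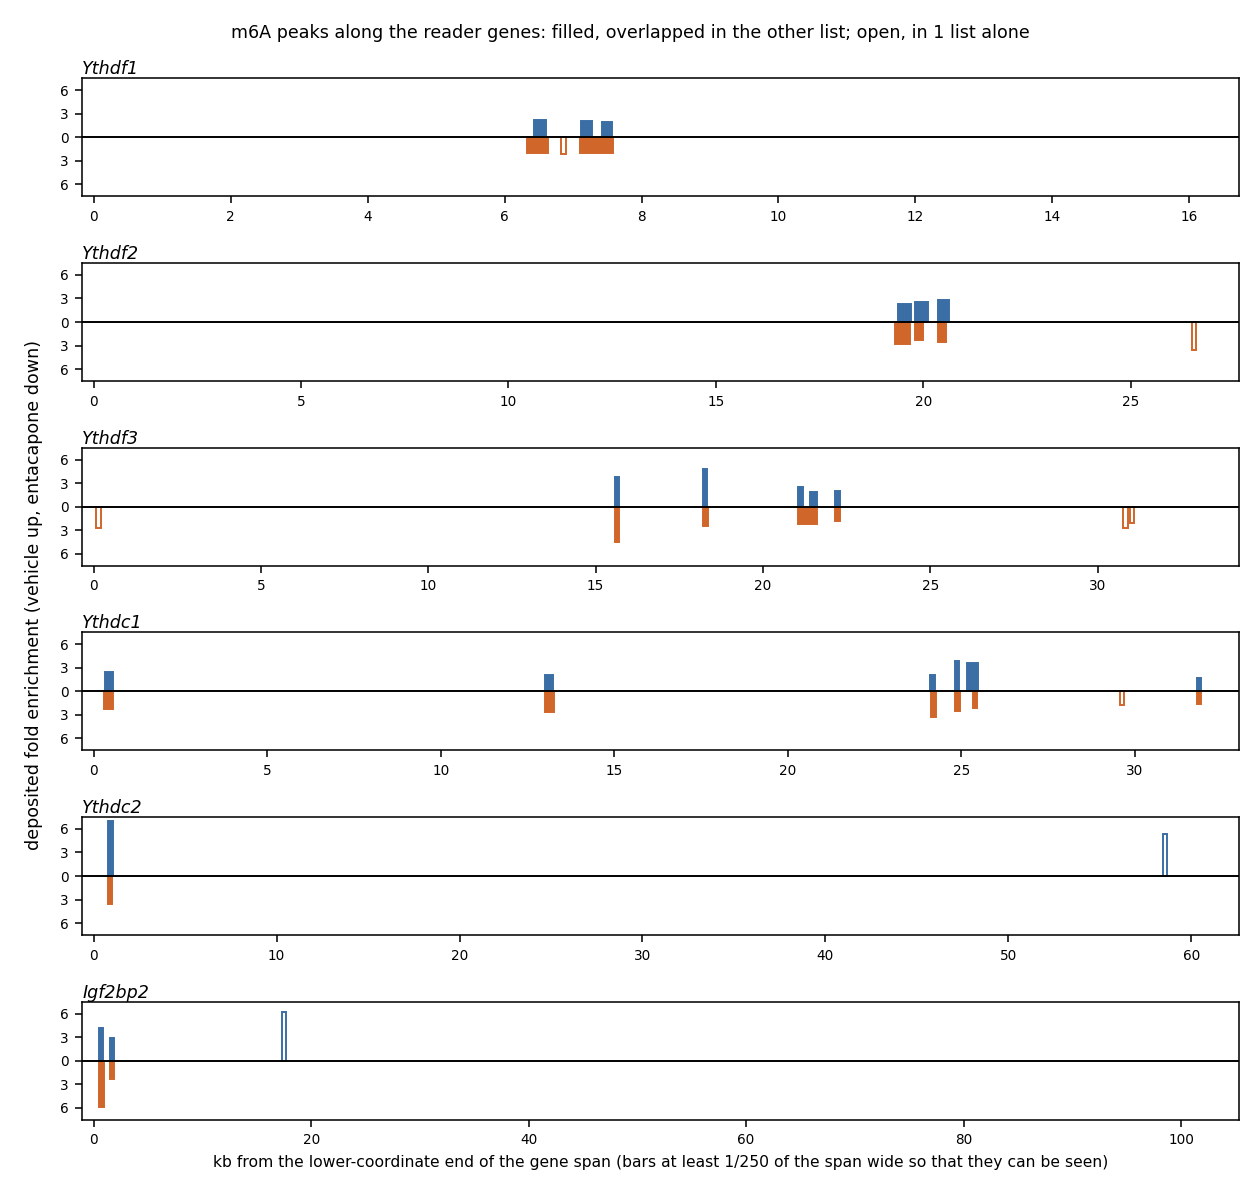
Peaks along each reader gene: the horizontal axis is kb from the lower-coordinate end of the gene span, bar height is the deposited fold enrichment, vehicle upward in blue and entacapone downward in orange. Filled bars overlap a peak of the other list and open bars do not; 6 open bars are entacapone peaks in Ythdf1, Ythdf2, Ythdf3 and Ythdc1, and 2 are vehicle peaks in Ythdc2 and Igf2bp2.

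Each peak below is given with its deposited number, read as the authors' fold enrichment, which ranks peaks within a list and is not compared between lists. Distances in kb are those of the peak midpoint. Ythdf1 spans chr2:180904377-180920936 on the minus strand and had 3 peaks in each list. The vehicle peaks were chr2:180910808-180910977 (fold 2.25), chr2:180911491-180911651 (2.0996) and chr2:180911797-180911942 (1.94). The entacapone peaks were chr2:180910701-180911006 (2.00), chr2:180911207-180911280 (2.14) and chr2:180911483-180911963 (1.98). All 474 bp of vehicle peaks lay inside entacapone peaks, and the last entacapone peak covered a pair of vehicle peaks together with the gap between them. The short peak of 73 bp between the others was in the entacapone list alone. The midpoint of every Ythdf1 peak lay between 9.07 and 10.1 kb from the gene start and between 6.48 and 7.49 kb from the gene end.

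Ythdf2 spans chr4:132184916-132212256, also on the minus strand, and its 3 vehicle peaks all had an entacapone partner. They were chr4:132204304-132204619 (fold 2.25), chr4:132204723-132205024 (2.55) and chr4:132205284-132205533 (2.84) in vehicle. Their partners were chr4:132204233-132204588 (2.81), chr4:132204725-132204918 (2.30) and chr4:132205274-132205455 (2.49). Midpoints of the peaks in this group lay 6.85 to 7.85 kb from the gene start. The fourth entacapone peak, chr4:132211404-132211493 (3.51), stood apart, 0.807 kb from the gene start, with no vehicle partner.

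Ythdf3 spans chr3:16183148-16217037 and had 5 vehicle and 7 entacapone peaks. Of all protein-coding genes, counted whatever their input level, 4.02% and 2.54% had as many or more. Shared peaks lay at chr3:16198758-16198814 (vehicle fold 3.72) with chr3:16198721-16198844 (entacapone 4.43), and at chr3:16201354-16201473 (4.84) with chr3:16201398-16201454 (2.42). The vehicle peaks chr3:16204191-16204344 (2.49) and chr3:16204565-16204763 (1.85) were joined under a single entacapone peak of 581 bp, chr3:16204189-16204770 (2.25). The last shared pair was chr3:16205321-16205436 (2.03) with chr3:16205313-16205439 (1.85). This gene had the most peaks in the entacapone list alone, 3 of the 6 in all readers. They were chr3:16183240-16183329 (2.73), 0.137 kb inside the lower end of the span, and chr3:16213940-16214028 (2.66) and chr3:16214134-16214233 (2.12), 3.05 and 2.85 kb inside its upper end. Strand is not given for Ythdf3 in the tables used here, so these ends are not named as start and end.

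Ythdc1 spans chr5:86803980-86836659 on the plus strand, and all of its 6 vehicle peaks were shared with the entacapone list. The peak at the start window was chr5:86804293-86804525 (fold 2.40) in vehicle and chr5:86804281-86804526 (2.21) in entacapone, nearly the same interval. The next was chr5:86816990-86817225 (2.103) and chr5:86816999-86817233 (2.58), again much the same stretch. A group followed at chr5:86828118-86828195 (2.03), chr5:86828799-86828915 (3.81) and chr5:86829156-86829456 (3.62) in vehicle. In entacapone this group was chr5:86828115-86828265 (3.24), chr5:86828831-86828926 (2.44) and chr5:86829321-86829445 (2.13). The order of folds inside the group thus differed, with the first peak lowest in vehicle and highest in entacapone. Close to the gene end lay chr5:86835815-86835866 (1.64) and chr5:86835766-86835889 (1.63), among the lowest folds of each list. The entacapone-only peak chr5:86833565-86833674 (1.69) was 3.04 kb from the gene end.

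Ythdc2 spans chr18:44827730-44889720 and had 2 vehicle peaks and 1 entacapone peak. The shared peak was chr18:44828556-44828724 (fold 7.06) in vehicle and chr18:44828588-44828649 (3.62) in entacapone, 0.910 and 0.889 kb from the lower end of the span. The vehicle peak had the highest fold of all reader peaks in its list, at percentile 94.9 of the list, and the entacapone peak was a 61 bp interval wholly inside it. At chr18:44886263-44886324 (5.29) lay a peak of the vehicle list alone.

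Igf2bp2 spans chr16:22059009-22163299 on the minus strand, 104.3 kb in all, and its shared peaks gathered at the gene end. They were chr16:22059644-22059725 (fold 4.18) with chr16:22059651-22059777 (5.96), and chr16:22060625-22060725 (2.91) with chr16:22060643-22060743 (2.38). These lay 0.676 to 1.68 kb from the gene end. The vehicle-only peak chr16:22076433-22076553 (6.15) was 17.5 kb from the end, and no entacapone peak was listed there. A peak absent from a list is not evidence that the mark is absent, and Ythdc2 and Igf2bp2, the readers with vehicle-only peaks, were also those with the fewest input counts, whose part in this was not tested.

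Ythdf1, Ythdf2, Ythdf3 and Ythdc1 each carried a compact group of peaks, with gaps of under 1 kb. In vehicle each group held 3 peaks, over 1134, 1229, 1245 and 1338 bp, respectively. In entacapone the groups covered 1262, 1222, 1250 and 1330 bp, with 3 peaks each except in Ythdf3, where joining left 2. Such a group of at least 3 peaks occurred in 40.3% of the 2871 genes with 3 or more vehicle peaks, and in 38.6% of the 4236 with 3 or more entacapone peaks, so it is not particular to readers. The rule for a group was chosen after the positions were seen. Which exons the groups fall in was not determined, since the annotation used here has gene spans alone.

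**Figure D3:**
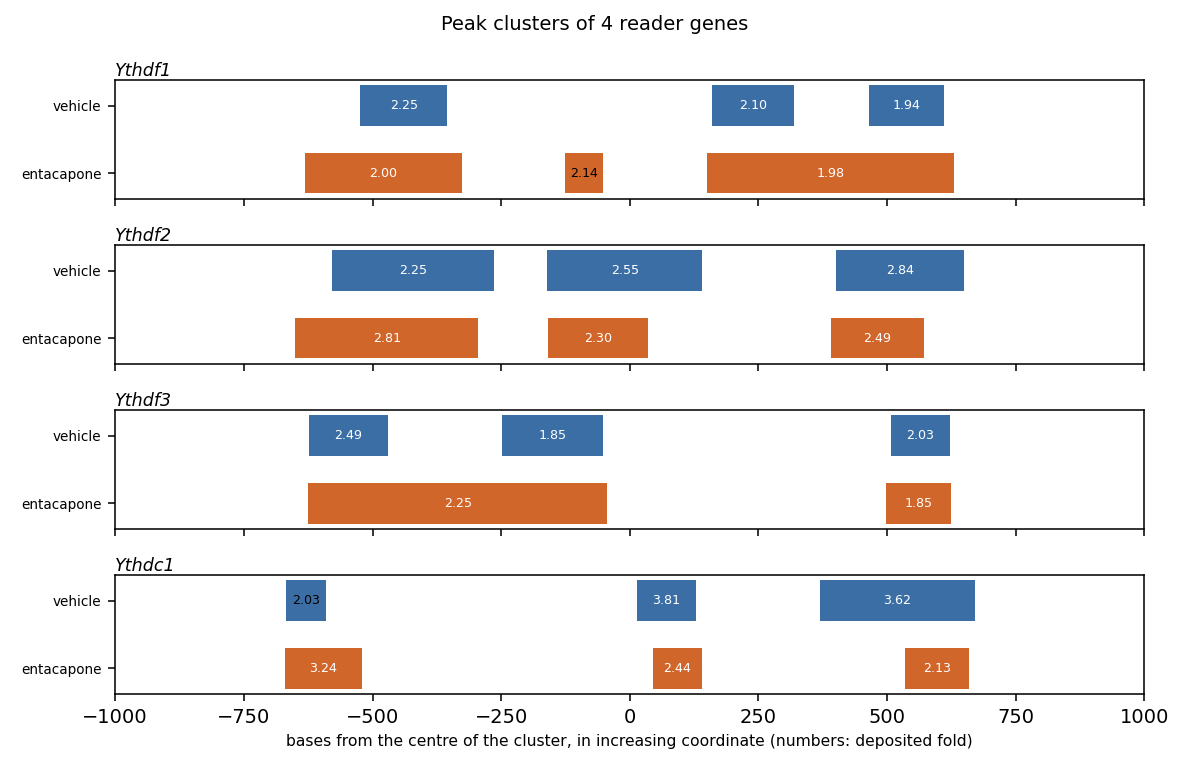
Peak groups of Ythdf1, Ythdf2, Ythdf3 and Ythdc1: the horizontal axis is bases from the centre of each group, bars are peaks of the vehicle (blue) and entacapone (orange) list, and numbers are deposited folds. In Ythdf1 and Ythdf3 a single entacapone peak (folds 1.98 and 2.25) covers a pair of vehicle peaks.

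Pooled over the 6 genes, most reader peaks had folds below the median of their list, but the genes differed. By their median percentile of fold, Ythdf1, Ythdf2, Ythdf3 and Ythdc1 lay below the middle of each list. Ythdc2 and Igf2bp2 lay above it, at percentiles 89.2 and 68.5 in vehicle and 63.2 and 60.1 in entacapone. The pooled counts that follow take each peak of a gene separately. In vehicle, 14 of 22 lay below the list's median fold of 3.32, and their own median was 2.52. In entacapone, 19 of 24 lay below the list's median of 3.10, with a median of 2.40. Genes with 3 or more peaks had median folds of 3.24 and 2.96 in these lists. Every Ythdf1 and Ythdf2 peak in vehicle was below 3, whereas both vehicle peaks of Ythdc2 were above 5. At a fold of at least 4 there remained 5 vehicle peaks, in Ythdf3, Ythdc2 and Igf2bp2, and 2 entacapone peaks, in Ythdf3 and Igf2bp2. The median width of reader peaks was 149 bp in vehicle and 123.5 bp in entacapone, beside 115 and 112 bp for the lists. Among shared peaks alone it was 156.5 bp beside 133 in vehicle and 138 beside 152 in entacapone, so the readers stood on opposite sides of the list in the 2 libraries. The 6 entacapone-only peaks were short, with a median width of 89 bp beside 85 bp for all entacapone-only peaks, and had a median fold of 2.40 beside 3.19.

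**Figure D4:**
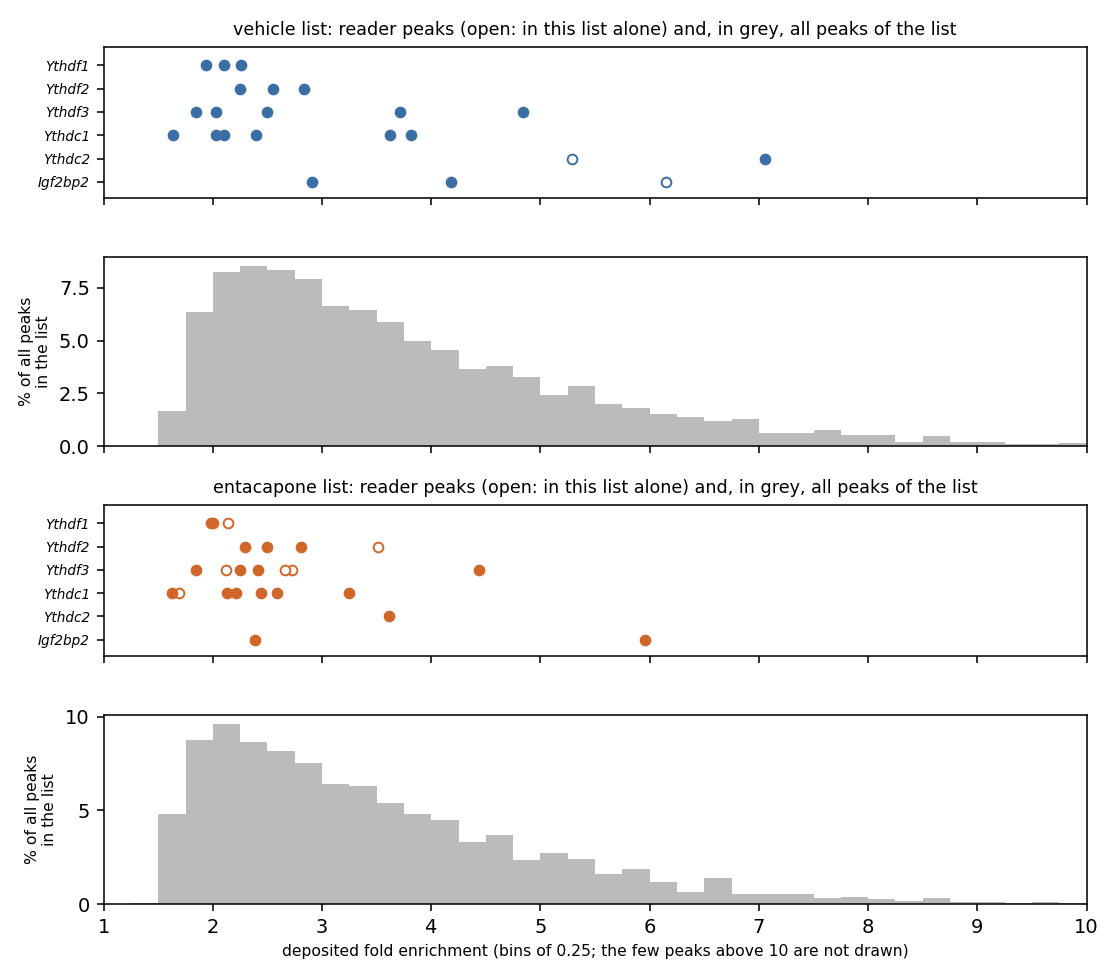
Deposited fold of each reader peak by gene (points, open where the peak is in that list alone) above the distribution of all peaks of the same list (grey bars, percent of the list); the horizontal axis is fold enrichment. Most points lie left of the list medians of 3.32 and 3.10, and the vehicle-only peaks of Ythdc2 (5.29) and Igf2bp2 (6.15) lie to the right.

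Other genes of the pathway were looked at in the peak lists alone: 14 further m6A-binding proteins, 10 partners of readers, 9 writers and 2 erasers. Of these 35 genes, 22 had a vehicle and 29 an entacapone peak, and 5 had none in either list. Among the 30 with a peak, 18 had more, 6 equal numbers and 6 fewer in entacapone, beside 55.3%, 29.3% and 15.3% of all genes with a peak in either list. Their peaks numbered 54 in vehicle and 77 in entacapone. The further binding proteins had peaks in 5 and 11 of 14 genes, beside 6 and 6 of 6 for the readers. Igf2bp1 and Igf2bp3, the paralogs of Igf2bp2, had none in either list. Partners of readers had 13 peaks in each list, writers 31 and 39, and erasers 2 and 5.

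Genes of this pathway whose counts differed by 3 or more were Fmr1, Upf1 and Rbm15, all with more peaks in entacapone. Of all genes with a peak in either list, 7.18% had at least 3 more and 0.568% at least 3 fewer. Among the 30 pathway genes with a peak, the number named here cannot be read as differing from those shares. Fmr1, the fragile X RNA-binding protein, had 0 vehicle and 4 entacapone peaks. Upf1, the nonsense-mediated decay helicase, had 1 and 4, and Rbm15, an adaptor of the writer complex, had 5 and 9. Among the 6 readers the widest difference was that of Ythdf3, with 5 and 7.

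**Figure D5:**
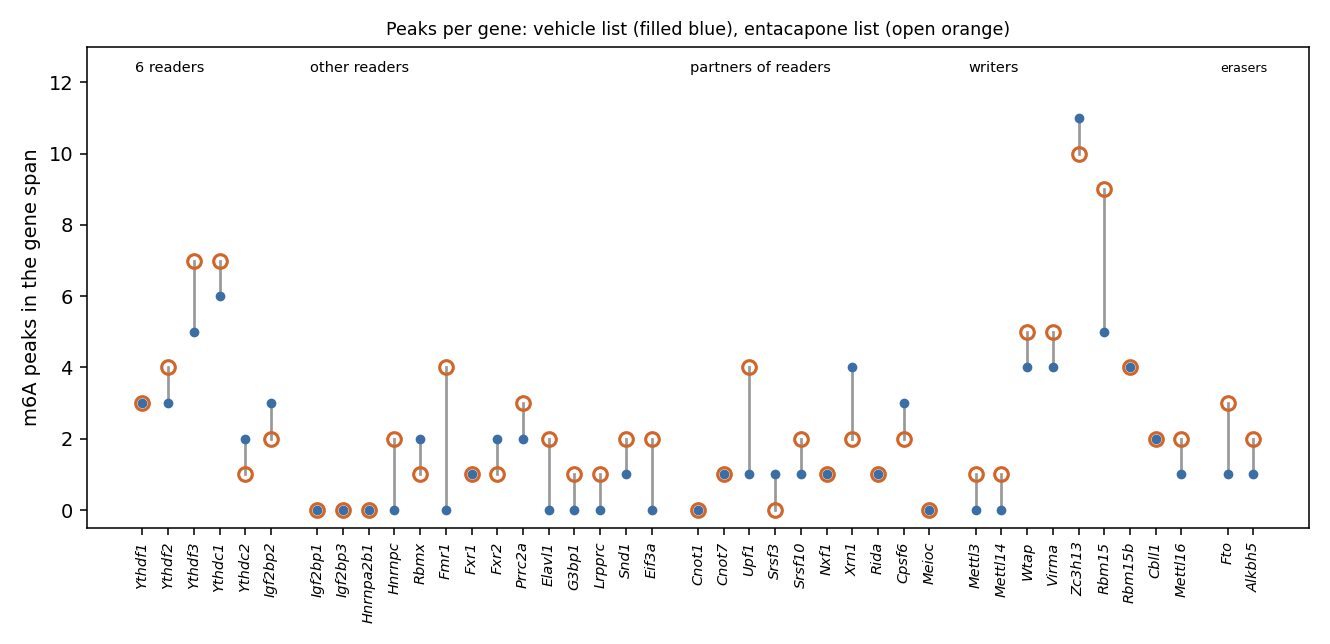
Number of m6A peaks per gene in the vehicle list (filled blue) and the entacapone list (open orange) for the 6 readers and 35 other m6A pathway genes. The readers range from 2 to 6 vehicle peaks and from 1 to 7 entacapone peaks, and Zc3h13 of the writers has the most, 11 and 10.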

How the data were processed

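The input files hold raw read counts per Ensembl gene identifier, as deposited by the authors with no normalization. The peak files hold, per IP library, intervals and an unlabelled number as deposited, read here as the authors' fold enrichment (a ratio). It never falls below 1, but that alone does not identify it as a fold. TopHat2 2.1.1, MACS2 and mm10 were used, per the submitters' processing notes; of the read counter, its strand setting, the peak threshold and the base from which starts count, the sources used here say nothing.

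Counts were scaled to the library total, with identifiers at or above 1 CPM on average as background. Ratios carry exact conditional (Clopper-Pearson) 95% intervals, and levels exact Poisson intervals. TMM (edgeR 4.0.16), DESeq2 1.42.0 size factors and the upper quartile were alternatives. Counts for the 13820 identifiers of the input comparison were also simulated by Poisson draws, which hold counting error alone. There the rule called 90.0% of the 2-fold changes, 100.0% of the 4-fold changes and 0 unchanged identifiers. Variation between mice or libraries was not simulated, so the rate of false calls in the data cannot be read from this. Overlaps used bedtools 2.31.1. Gene spans came from RefSeq on GRCm38.p6, protein-coding genes first and the shorter where spans overlap, and strand from its promoter table, which held 4 of the 6 readers.

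Members and lists were chosen with earlier results of these data known. All 6 readers are named with all their peaks, and pathway genes where peak counts differ by at least 3. The planned input levels of pathway genes, protein sequences and motif search in peaks were not run, as the tables used here lack what they need.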

Additional observations from a re-analysis of the deposited data

Results flagged for a closer look

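Peaks outside every gene span but within 1 kb of a reader's span were left out of the counts above. The entacapone list held 2 of them, with no vehicle partner, and the vehicle list held none. Peaks near a reader's span but inside the span of another gene were not looked for. The Ythdf2 peak, chr4:132212549-132212695, had a fold of 6.63 (percentile 95.8 of the list) and lay 293 bp beyond the upper end of the span, which is upstream of the start on the minus strand. The Ythdc2 peak, chr18:44826933-44827109, had a fold of 8.56 (percentile 98.9) and lay 621 bp below the lower end of the span. Each had a higher fold than every entacapone peak inside a reader span. Outside all gene spans and within 1 kb of a span end, 2.09% of 21887 protein-coding genes had an entacapone peak and 1.51% a vehicle peak.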

How the results depend on the processing

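Ratios of the 6 readers in the inputs stayed within their 95% intervals under TMM factors, DESeq2 size factors and the upper quartile, and no reader passed 1.5-fold. The Ythdf3 interval held 1 with TMM factors (0.996 to 1.14) and with DESeq2 size factors (0.994 to 1.14), and excluded it with the upper quartile (1.02 to 1.16). With 99% intervals that of Ythdf1 (0.825 to 1.0001) held 1, and those of Ythdf3 and Ythdc1 did not. Peak counts depended on the fold threshold. At a fold of at least 4 the readers had 5 vehicle and 2 entacapone peaks, and 1 peak of each list was shared. By that threshold 0 readers had more and 4 had equal numbers in entacapone. Of those 4, Ythdf1, Ythdf2 and Ythdc1 had no such peak in either list. At a fold of at least 2, 2 readers had equal numbers. With the entacapone list cut by fold to the length of the vehicle list, the entacapone list kept 12 reader peaks, 0 readers had more and 5 had fewer. Requiring an overlap of 50% of both peaks left 11 shared peaks in each list. The overlap of 50% of the shorter peak was chosen after seeing the data and changed no count by over 1.5 times. No paired analysis was possible because each group has 1 library and the labels carry no replicate numbers.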
